A study of Mus musculus with 9 samples.

Results

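The 30 genes described here encode the enzymes that make cholesterol and fatty acids, with their main regulators and 1 sterol carrier, in macrophages sorted from mouse tumours. They were chosen by gene symbol from a list of the pathway and are 30 of the 18042 genes in the deposited table. All 30 passed the filter on low counts. They were divided by role into 8 genes from acetyl-CoA to squalene, 11 from squalene to cholesterol, 4 sterol regulators and transport genes, and 7 genes of fatty acid synthesis and desaturation.

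Every group carried the same tumour: 1000000 cells of MC38, a mouse colon carcinoma line, placed under the skin of female wild-type C57BL/6 mice of 6 to 8 weeks. From day 9 the tumours received injections of OMVs, of IN@OMVs (both dosed by vesicle protein, at 625 µg per kg or 12.5 µg per mouse), or, as the Control group, of the same volume of PBS, the solvent. OMVs commonly stands for outer membrane vesicles, small particles released by bacteria, and the sources used here do not say what IN means. Tumour-associated macrophages were then sorted as CD11b+ F4/80+ cells, and their RNA was extracted with TRIzol and primed with oligo-dT, in 3 libraries per group. The labels call these biological replicates without saying whether each is 1 mouse or a pool, so p-values measure the spread between these libraries.

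Cholesterol is built from acetyl-CoA through mevalonate, isoprenoid diphosphates, squalene and lanosterol, and fatty acids are built from acetyl-CoA through malonyl-CoA. Both routes are under the SREBP transcription factors: SREBP2, encoded by Srebf2, acts mainly on sterol genes and SREBP1, encoded by Srebf1, mainly on fatty acid genes. When sterols are plentiful in the endoplasmic reticulum the Insig proteins hold the SREBP precursors there, and when sterols run low the precursors are cut and enter the nucleus. In macrophages these routes are known to respond to inflammatory signals and to the uptake of lipid from other cells.

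The libraries held 16813230 to 17288322 expected counts, and the 30 genes together took 0.275% to 0.330% of them. Levels are given as CPM, counts scaled to library size and its TMM factor, and they are compared between libraries for 1 gene at a time. The 10 macrophage markers were measured in each library, with summed levels of 13586 to 14574 CPM in Control, 13314 to 17475 in OMVs and 12809 to 17864 in IN@OMVs. Markers of other cells moved between libraries. The 7 neutrophil markers summed to 768 to 1118 CPM in Control, 548 to 727 in OMVs and 129 to 195 in IN@OMVs, and all 7 fell in IN@OMVs against Control. The 8 fibroblast markers summed to 1463 CPM in IN@OMVs 1, which thus stood apart, and to 3438 to 5842 CPM in the other 8 libraries. The 11 measured T cell markers summed to 240.1 to 277 CPM in the libraries numbered 1 and to 53.6 to 119.8 CPM in the others. Of 5 adipocyte markers only Lipe, which macrophages also express, reached 1 CPM, and of 6 epithelial or tumour markers Krt8, Krt18, Krt19 and Cldn7 stayed under 1 CPM. These 6 summed to 48.5 to 64.8 CPM in Control, 44.8 to 51.6 in OMVs and 36.2 to 42.0 in IN@OMVs, nearly all of it Cdh1, which fell in IN@OMVs against Control. The 6 conventional dendritic cell markers summed to 15.3 to 20.5 CPM in Control, 14.6 to 16.7 in OMVs and 18.8 to 23.5 in IN@OMVs. Clec9a and Batf3 rose in IN@OMVs against Control, while Flt3 was lower there without a call. The 5 endothelial markers summed to 26.5 to 29.7 CPM in Control, 33.1 to 41.2 in OMVs and 26.0 to 31.0 in IN@OMVs. Of these Kdr rose in IN@OMVs against Control, and the median log2 change of the 4 tested was -0.22. In bulk RNA, fewer cells of a type and less RNA per cell cannot be told apart.

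Upstream sequence was taken for 24 of the 30 genes from RefSeq's promoter table (build GRCm38.p6), in windows from 250 bases before to 50 after each transcription start. The other 6, Fdps, Fdft1, Sqle, Stard4, Scd2 and Fads1, had no entry. The sterol response element, the site that SREBPs bind, was searched as TCACNCCAC on both strands, and it was found in 1 of the 24 genes (Hmgcs1, where it began 137 bases before the start), against 1.36% of the 10424 tested genes in the table and 1.24% of all 32851 windows. Its shorter core CACNCCA, which the longer motif contains, was found in 5 genes (Acat2, Hmgcs1, Msmo1, Srebf2 and Insig1), 20.8% of the 24 against 20.7% of the tested genes in the table and 18.4% of all windows. The CCAAT box, searched on both strands after the other results were known, was found in 20 of the 24 (83.3%), against 43.3% of the tested genes in the table and 37.4% of all windows. Genes with several listed starts had more than 1 window, and a match describes letters and is not a measured binding site. Other spellings and sequence outside the windows were not searched, so a gene without a match is not shown to lack a sterol response element.

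The 150 bases before the start are shown for 7 genes to set the window with the sterol response element beside those of genes that passed the test in IN@OMVs against Control. They are read 5′ to 3′ on the gene's strand, with TCACNCCAC and CCAAT matches on either strand in capitals (CCAAT reads ATTGG on the other). Hmgcs1 lies at chr13:119690201-119690350 on the plus strand and Nsdhl at chrX:72918371-72918520, also plus. Mvd (chr8:122443423-122443572), Cyp51 (chr5:4104698-4104847), Msmo1 (chr8:64733579-64733728) and Lbr (chr1:181842402-181842551) are on the minus strand. Dhcr7, with 3 listed starts and the first shown, is at chr7:143823017-143823166 on the plus strand.
Hmgcs1: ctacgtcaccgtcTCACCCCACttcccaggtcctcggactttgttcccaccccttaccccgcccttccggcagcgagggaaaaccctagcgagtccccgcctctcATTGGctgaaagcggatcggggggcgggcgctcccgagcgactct
Mvd: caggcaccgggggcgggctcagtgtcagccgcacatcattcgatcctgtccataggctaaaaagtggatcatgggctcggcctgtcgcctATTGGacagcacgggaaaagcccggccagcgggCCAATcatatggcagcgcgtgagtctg
Cyp51: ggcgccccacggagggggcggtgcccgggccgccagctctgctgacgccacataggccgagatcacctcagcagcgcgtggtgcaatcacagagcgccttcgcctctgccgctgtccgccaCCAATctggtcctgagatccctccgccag
Msmo1: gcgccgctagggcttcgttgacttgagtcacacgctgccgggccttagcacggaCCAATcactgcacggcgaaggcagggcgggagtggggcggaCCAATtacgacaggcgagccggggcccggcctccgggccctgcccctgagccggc
Nsdhl: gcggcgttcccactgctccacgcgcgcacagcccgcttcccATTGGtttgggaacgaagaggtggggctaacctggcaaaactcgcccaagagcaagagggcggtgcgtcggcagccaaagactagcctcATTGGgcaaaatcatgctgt
Dhcr7: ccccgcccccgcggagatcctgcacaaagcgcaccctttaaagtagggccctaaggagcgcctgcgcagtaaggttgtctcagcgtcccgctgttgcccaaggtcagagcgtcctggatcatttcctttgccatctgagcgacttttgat
Lbr: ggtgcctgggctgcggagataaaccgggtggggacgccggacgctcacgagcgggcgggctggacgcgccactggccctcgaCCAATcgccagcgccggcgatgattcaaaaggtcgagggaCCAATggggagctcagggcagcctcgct
The stretch of Lbr, the gene that fell, holds 2 CCAAT matches as do those of Mvd, Msmo1 and Nsdhl, which rose. Those of Cyp51 and of Lss, which also rose, hold 1 each, and the stretch of Lss is not shown. The shown stretch of Dhcr7 has no match of either motif, but Dhcr7 is among the 20 genes with a CCAAT match in the full windows. The stretch of Hmgcs1 has 1 match of each motif.

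Across the 30 genes most fitted changes were small and positive in the treated groups. The median log2 fold change against Control was 0.22 in IN@OMVs (range -0.26 to 0.48), where 27 of 30 were above 0, and 0.10 in OMVs (range -0.10 to 0.29), where 26 were. Over all 13090 genes tested 49.5% and 49.8% were above 0. These 2 comparisons share the Control libraries. Between the treated groups the median was 0.09 (range -0.21 to 0.25), with 23 of 30 above 0 in IN@OMVs against OMVs and 49.1% of all genes. Summed over the 8 genes from acetyl-CoA to squalene, the level was 592 to 634 CPM in Control, 642 to 692 in OMVs and 674 to 750.1 in IN@OMVs. Over the 11 genes from squalene to cholesterol it was 669 to 693 CPM in Control, 721 to 752 in OMVs and 759.5 to 817 in IN@OMVs. Over the 7 fatty acid genes it was 984 to 1004.8 CPM in Control, 1048 to 1107 in OMVs and 1005.8 to 1164 in IN@OMVs. Every treated library thus lay above every Control library in each of these sums, for fatty acids only just in IN@OMVs 1. The sums for the 4 regulators and transport genes overlapped among all 3 groups (466 to 499 CPM in Control, 477 to 509 in OMVs, 495 to 508 in IN@OMVs). Gene by gene, IN@OMVs 2 was the highest of the 9 libraries for 13 of the 30, and Control 2 and 3 were the lowest for 9 and 8.

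**Figure D1:**
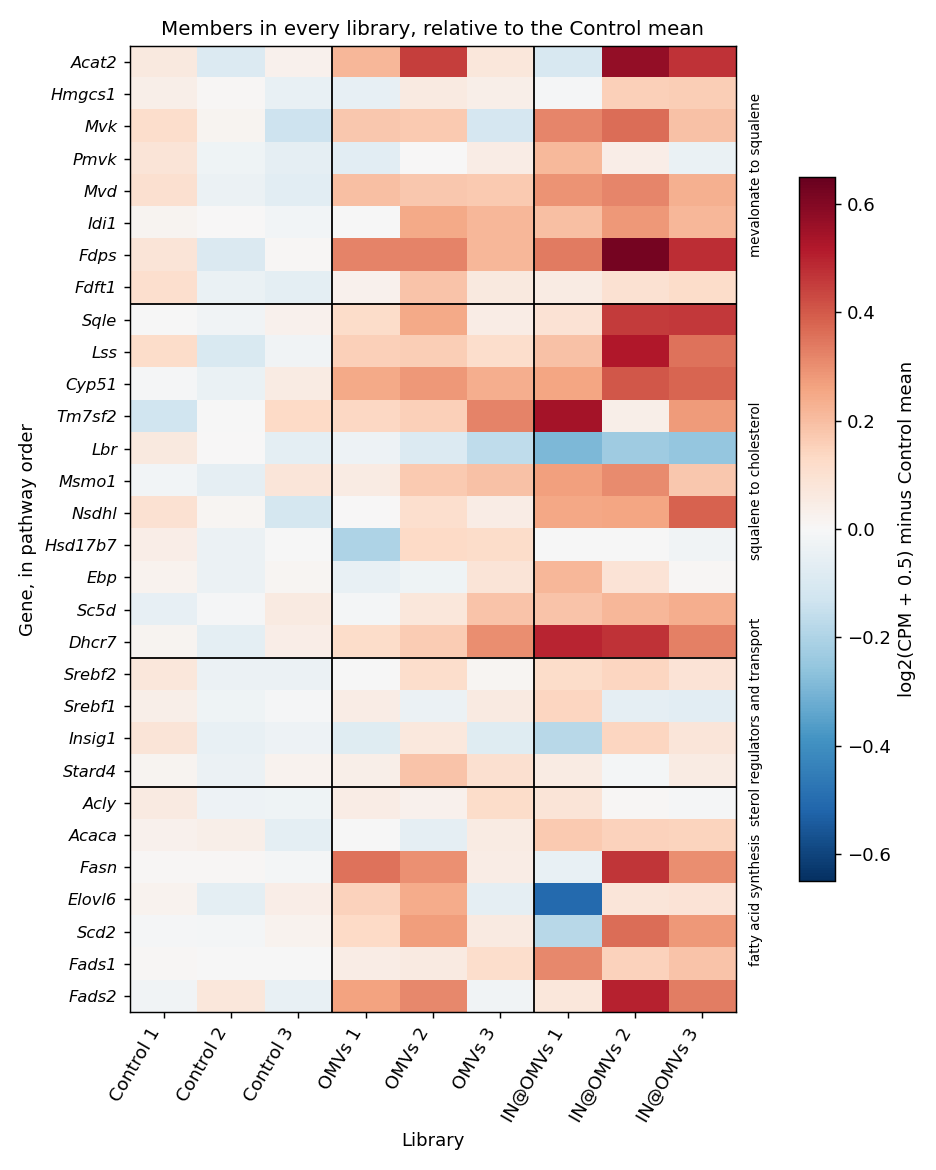
Each cell is 1 gene in 1 library, coloured by log2(CPM + 0.5) minus the mean of the 3 Control libraries, with genes in pathway order and black lines between groups and roles. Most sterol genes are red in OMVs and IN@OMVs, Lbr is blue in the treated libraries, and Elovl6, Scd2 and Acat2 are blue in IN@OMVs 1 while red in IN@OMVs 2 and 3.

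The calls among the 30 genes lay in IN@OMVs against Control. There 8 of the 30 genes rose and 1 fell in edgeR's quasi-likelihood test at an adjusted p under 0.05, where 3.32% of all tested genes rose and 3.24% fell. Of the 9, 2 belonged to the steps up to squalene (Mvd, Fdps), 6 to the steps from squalene on (Lss, Cyp51, Msmo1, Nsdhl and Dhcr7 higher, Lbr lower) and 1 was a fatty acid desaturase (Fads1), and the regulators had no call. With the replicate number as a block 5 of the 9 passed, and the calls of Lss, Msmo1, Nsdhl and Fads1 were lost. Fdps, the farnesyl diphosphate synthase, had the largest rise, 1.40-fold. An unadjusted p under 0.05 was reached by 15 of the 30 and by 19.8% of all genes. All 3 IN@OMVs libraries lay above all 3 Control libraries for 15 genes and below them for 1, against 13.3% and 12.5% of all genes. The same 3 IN@OMVs libraries held the lowest neutrophil marker sums (129 to 195 CPM). They also held the lowest epithelial or tumour marker sums, which were nearly all Cdh1. Clec9a, Batf3 and Kdr were higher there than in Control, while Flt3 and Pecam1 of the same marker lists were mostly lower. The part of these in the results below was not tested.

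Among the genes up to squalene the median log2 change in IN@OMVs against Control was 0.26 and all 8 were above 0. Fdps makes farnesyl diphosphate, the branch point to sterols and to protein prenylation. It stood at 123, 108 and 116 CPM in Control 1, 2 and 3, at 145, 145 and 134 CPM in OMVs, and at 146, 178 and 161 CPM in IN@OMVs. All treated libraries were above all Control libraries, and the OMVs libraries were also below the 3 of IN@OMVs. The log2 change was 0.48 ± 0.08 (SE, adjusted p = 0.00752). Mvd, the decarboxylase that gives isopentenyl diphosphate, stood at 41.8, 37.8 and 36.9 CPM in Control, 44.5, 43.8 and 43.7 in OMVs and 47.5, 48.4 and 45.6 in IN@OMVs. Its groups were in the same order without overlap, with a log2 change of 0.28 ± 0.06 (adjusted p = 0.0240).

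Idi1, which converts isopentenyl diphosphate to its isomer, stood at 109, 108 and 107 CPM in Control, 108, 128 and 126 in OMVs and 124, 132 and 126 in IN@OMVs. OMVs 1 was at the Control level while the other treated libraries were above it, and the change in IN@OMVs did not pass (0.23 ± 0.07, adjusted p = 0.0851). Hmgcs1, the HMG-CoA synthase at the entry of the mevalonate route, differed little between groups: 179.6, 176 and 169.5 CPM in Control, 169, 182 and 179 in OMVs and 174, 195 and 196 in IN@OMVs. IN@OMVs 1 lay within the Control range and the log2 change was 0.11 ± 0.06 (adjusted p = 0.398), in the gene whose window holds the sterol response element. The other 4 had log2 changes of 0.07 (Pmvk, phosphomevalonate kinase) to 0.35 (Acat2, which joins acetyl-CoA units), with Mvk, mevalonate kinase, at 0.30 and Fdft1, squalene synthase, at 0.09, and 0 of them passed. Expected counts of Acat2 and Fdft1 were fractional in all 9 libraries, which marks reads shared with other sequences, while those of the other 28 genes were whole (within 1e-09).

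From squalene to cholesterol the median in IN@OMVs against Control was 0.30, and 9 of 11 genes were above 0. Cyp51, the lanosterol demethylase, stood at 124, 120.5 and 129 CPM in Control, 148, 151 and 146 in OMVs and 148, 164 and 162 in IN@OMVs. Both treated groups were clear of Control and overlapped each other. The change was 0.35 ± 0.05 (adjusted p = 0.00594). Dhcr7, which reduces dehydrocholesterol to cholesterol, stood at 28.8, 27.2 and 29.2 CPM in Control, 30.9, 31.8 and 35.1 in OMVs and 40.2, 39.5 and 35.7 in IN@OMVs. Its 3 groups did not overlap, and the change was 0.44 ± 0.07 (adjusted p = 0.00855), or 1.35-fold.

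Lss, which closes squalene epoxide into lanosterol, stood at 42.2, 36.2 and 38.3 CPM in Control, 43.3, 43.4 and 42.0 in OMVs and 44.4, 56.0 and 49.8 in IN@OMVs. IN@OMVs 1 was close to the OMVs libraries and the other 2 were well above, giving 0.36 ± 0.09 (adjusted p = 0.0444, and 0.0952 with the block). Msmo1, the methylsterol oxidase that follows Cyp51, stood at 107, 104 and 114 CPM in Control, 112, 121 and 123 in OMVs and 130.1, 134 and 122 in IN@OMVs. OMVs overlapped both other groups and IN@OMVs was above Control (0.25 ± 0.06, adjusted p = 0.0444, and 0.0876 with the block). Nsdhl, the sterol dehydrogenase acting after Msmo1, stood at 33.4, 31.5 and 28.8 CPM in Control, 31.2, 33.6 and 32.2 in OMVs and 37.3, 37.3 and 40.8 in IN@OMVs. Here OMVs lay with Control, and IN@OMVs stood above both (0.30 ± 0.07 against Control, adjusted p = 0.0412, and 0.0916 with the block).

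Lbr went the other way. It encodes the lamin B receptor, an inner nuclear membrane protein that is also a sterol reductase acting at the same step as Tm7sf2. Its level was 121, 116 and 111 CPM in Control, 113, 109 and 103 in OMVs and 94.3, 98.4 and 97.1 in IN@OMVs. All IN@OMVs libraries were below the other 6, and Lbr fell by 0.26 on the log2 scale (SE 0.05, adjusted p = 0.0234). Tm7sf2 stood at 6.91 to 8.35 CPM in Control and 7.81 to 11.3 CPM in IN@OMVs (0.31 ± 0.15, adjusted p = 0.306).

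Sqle, the squalene epoxidase and a rate-limiting enzyme, stood at 104, 103 and 107 CPM in Control, 114, 124 and 108 in OMVs and 112, 144 and 144 in IN@OMVs. All treated libraries exceeded Control, but IN@OMVs 1 was below the other 2 and the change did not pass (0.35 ± 0.10, adjusted p = 0.0756). Of the remaining genes, Sc5d, a sterol desaturase, had a log2 change of 0.22 (adjusted p = 0.0797), Ebp, a sterol isomerase, 0.11 and Hsd17b7, a ketosteroid reductase, -0.01.

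**Figure D2:**
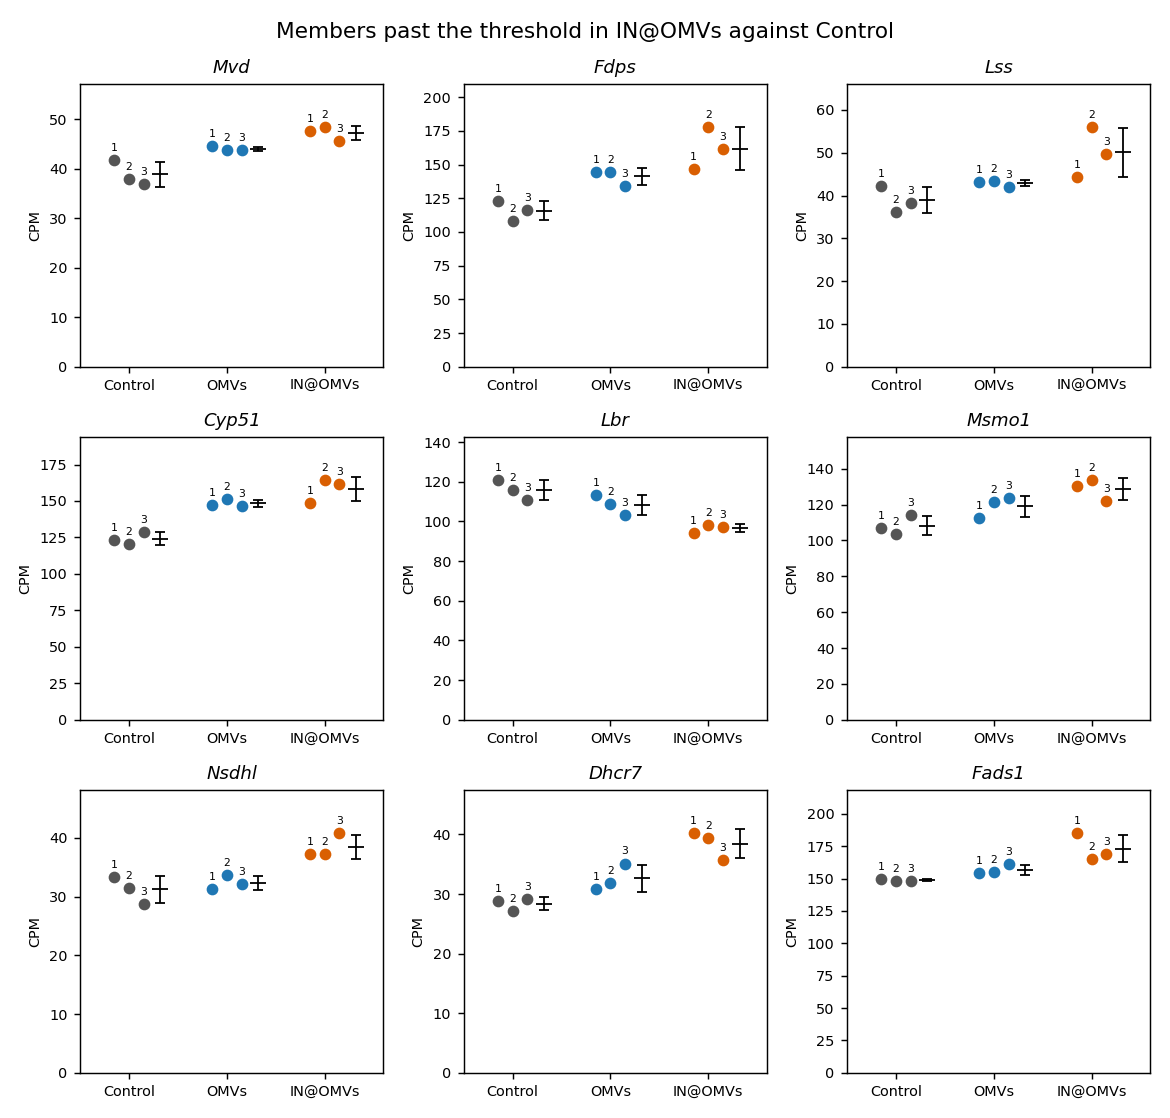
Levels in CPM (vertical axis, from 0) of the 9 genes past the threshold in IN@OMVs against Control, with 1 numbered point per library and the mean ± SD of each group beside it. The calls are from the fit without a block, and those of Lss, Msmo1, Nsdhl and Fads1 were lost with it. IN@OMVs lies above Control in 8 panels and below it in the panel of Lbr, and the 3 groups do not overlap for Mvd, Fdps, Dhcr7 and Fads1.

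The 4 sterol regulators and transport genes did not pass in any comparison. Srebf2 stood at 232, 215 and 215 CPM in Control, 221, 239 and 223 in OMVs and 239.8, 243 and 234 in IN@OMVs. The IN@OMVs libraries were above Control by a small margin (0.12 ± 0.05, adjusted p = 0.292). Srebf1 stood at 79.8, 76.4 and 77.3 CPM in Control, 80.5, 75.7 and 81.0 in OMVs and 85.8, 74.8 and 74.2 in IN@OMVs. IN@OMVs 1 was the highest of the 9 libraries and IN@OMVs 3 the lowest, with a log2 change of 0.01 ± 0.07 that was -0.01 when only library totals were used for scaling. Insig1, an SREBP target whose protein retains SREBP, stood at 114, 104 and 105 CPM in Control, 102, 113 and 102 in OMVs and 95.1, 119 and 114 in IN@OMVs. The 3 groups overlapped (0.02 ± 0.09, adjusted p = 0.940), and IN@OMVs 1 was again apart, as the lowest of all libraries. Stard4, a cytosolic sterol carrier, differed by 0.03 (adjusted p = 0.809).

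In fatty acid synthesis 1 of 7 genes rose in IN@OMVs against Control, where 3.32% of all tested genes did, and the median change was 0.17. Fads1, a desaturase of polyunsaturated fatty acids, stood at 149.6, 148 and 148 CPM in Control, 154, 155 and 161 in OMVs and 185, 165 and 169 in IN@OMVs. The 3 groups did not overlap and the change was 0.22 ± 0.05 (adjusted p = 0.0464). This call was lost with the block (adjusted p = 0.0850), with limma-voom (adjusted p = 0.0525) and in 8 of the 9 fits that left out 1 library, all but that without IN@OMVs 2. Acaca, the acetyl-CoA carboxylase that forms malonyl-CoA, stood at 34.8, 35.0 and 32.6 CPM in Control, 34.0, 32.8 and 35.4 in OMVs and 38.4, 37.9 and 37.7 in IN@OMVs. IN@OMVs was above both other groups, which overlapped, yet the change did not pass (0.16 ± 0.06, adjusted p = 0.151).

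Fasn, the fatty acid synthase, stood at 113, 113 and 111 CPM in Control, 144, 138 and 116 in OMVs and 109, 155 and 139 in IN@OMVs. IN@OMVs 1 was the lowest of all 9 libraries while IN@OMVs 2 was the highest, and the change did not pass (0.26 ± 0.12, adjusted p = 0.304). Fads2, another desaturase, had a log2 change of 0.32 (adjusted p = 0.176), Scd2, which makes monounsaturated fatty acids, 0.17, Acly, which supplies cytosolic acetyl-CoA, 0.03 and the elongase gene Elovl6 -0.09.

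Library IN@OMVs 1 stood apart from its group in part of these genes. The median SD of log2(CPM + 0.5) within a group was 0.09 in IN@OMVs for the 30 genes, 0.07 in OMVs and 0.06 in Control, against 0.15, 0.11 and 0.07 over all tested genes. IN@OMVs 1 was the lowest of the 3 IN@OMVs libraries for 16 of the 30 and the highest for 9. The count of 16 does not set it apart, as Control 2 was the lowest of its group for 16 and OMVs 1 for 15. IN@OMVs 1 was the lowest of all 9 libraries for Acat2, Lbr, Insig1, Fasn, Elovl6 and Scd2. Its level as a percentage of the mean of IN@OMVs 2 and 3 was 64.4 for Acat2, 65.8 for Elovl6, 70.4 for Scd2, 74.0 for Fasn, 77.6 for Sqle and 78.6 for Fads2, genes chosen after their values were seen. For others it was the highest, such as Fads1 and Dhcr7. The same library had the lowest sums of fibroblast markers (1463 CPM) and of 14 cell cycle genes (1631 CPM, against 1872 to 2201 in the other 8). It also had the highest sum of macrophage markers (17864 CPM, against 13099 and 12809 in IN@OMVs 2 and 3), with OMVs 3 close at 17475 CPM. The part of these markers in the values of IN@OMVs 1, and in the fits without it, was not tested. Scd1, a desaturase outside the 30 also chosen after its values were seen, stood at 36.5 CPM there and at 102 and 86.3 CPM in IN@OMVs 2 and 3.

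Without IN@OMVs 1, 13 of the 30 genes passed in IN@OMVs against Control, 12 higher and 1 lower, and 12.4% of all genes were called. The added ones were Sqle (0.45, adjusted p = 0.00106), Acat2 (0.52, adjusted p = 0.00796), Scd2 (0.32, adjusted p = 0.0133), Fasn (0.38, adjusted p = 0.0184) and Fads2 (0.42, adjusted p = 0.0202), and Fads1 no longer passed. With the replicate number as a block 5 passed, with 5.14% of all genes called: Cyp51 (adjusted p = 0.0174), Fdps (0.0255), Dhcr7 (0.0280), Mvd (0.0402) and Lbr (0.0420). Over the 9 fits that each left out 1 library, Fdps and Cyp51 passed in 9, Dhcr7 in 8 (adjusted p = 0.0501 without Control 2), Lbr and Mvd in 6, Msmo1 in 2, and Lss, Nsdhl and Fads1 in 1 each, and all 9 genes kept their direction.

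**Figure D3:**
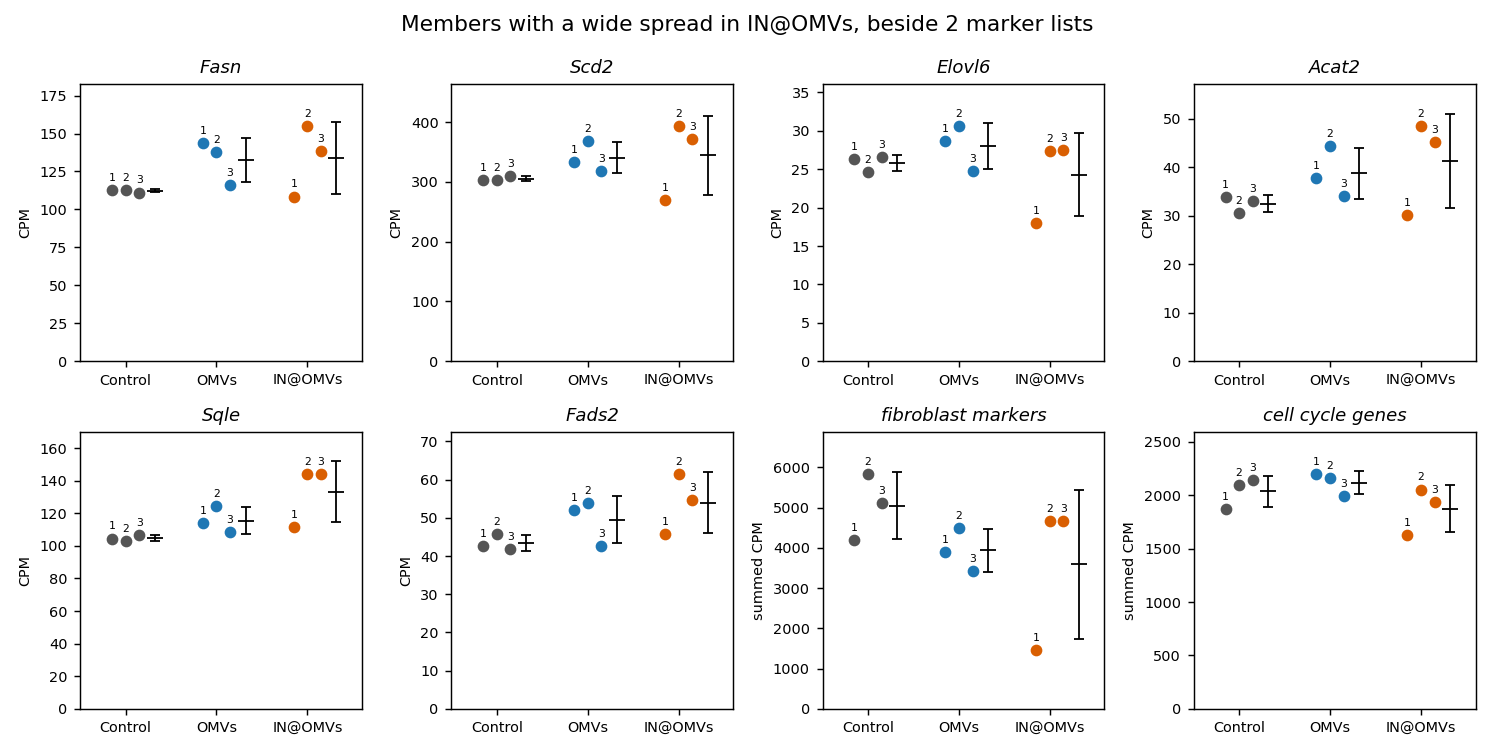
Levels in CPM (vertical axes, from 0) of 6 genes, and the summed CPM of fibroblast markers and cell cycle genes. Each panel has 1 numbered point per library and the mean ± SD of each group. The 6 genes have a wide spread in IN@OMVs and were chosen for low levels in IN@OMVs 1. IN@OMVs 1 is the lowest IN@OMVs library in all 8 panels, which for the 6 genes follows from that choice. Tm7sf2 also has a wide spread in IN@OMVs and is not shown. Its level was highest in IN@OMVs 1 (11.3 CPM, against 7.81 and 9.31 CPM in IN@OMVs 2 and 3).

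For OMVs against Control, most fitted changes were positive and did not pass. In edgeR 0 of the 30 genes passed, where 0.42% of all genes were called, and 6 had an unadjusted p under 0.05, against 8.44% of all genes. DESeq2 called 1 (Cyp51) and limma-voom 0. All OMVs libraries lay above all Control libraries for 11 genes (9.89% of all genes) and below them for 0 (9.89%). Cyp51 had the smallest p, with a log2 change of 0.26 ± 0.05 (adjusted p = 0.126, and 0.0281 without IN@OMVs 1, a library of neither group that enters the shared estimate of spread; 2.01% of all genes were then called). Fdps followed with 0.29 ± 0.08 (adjusted p = 0.256). The other genes with an unadjusted p under 0.05 were Mvd (0.18), Dhcr7 (0.20), Idi1 (0.16) and Msmo1 (0.14). For both Fdps and Cyp51 the OMVs libraries, listed above, were all higher than the Control libraries. The neutrophil marker sums were also lower in the 3 OMVs libraries than in the 3 Control libraries, and their part here was not tested. Medians by role were 0.13 up to squalene, 0.14 from squalene on, 0.03 for regulators and transport and 0.12 for fatty acids.

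For Fasn, OMVs 1 and 2 were well above Control and OMVs 3 only just, and its log2 change of 0.24 did not pass. The 95% interval of the log2 change ended at 0.38 for Cyp51 and at 0.47 for Fdps. For Srebf2 the interval was -0.08 to 0.17 and for Hmgcs1 -0.12 to 0.15.

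The comparison of IN@OMVs against OMVs, at the same dose of vesicle protein, is the test of whether both treatments differed. Of the 30 genes 0 passed in edgeR, DESeq2 or limma-voom, where edgeR called 2.85% of all genes, and 7 had an unadjusted p under 0.05, against 14.4% of all genes. All IN@OMVs libraries lay above all OMVs libraries for 9 genes (8.86% of all genes) and below them for 1 (8.72%), which was Lbr. The smallest p belonged to Nsdhl (0.25 ± 0.07, adjusted p = 0.134), Dhcr7 (0.24 ± 0.07, adjusted p = 0.158), Lbr (-0.17 ± 0.05, adjusted p = 0.192) and Acaca (0.16 ± 0.06, adjusted p = 0.221). Fads1 (0.14), Lss (0.22) and Fdps (0.20) completed the 7. All 7 neutrophil markers also fell in IN@OMVs against OMVs, and their part here was not tested. Medians by role were 0.09 up to squalene, 0.11 from squalene on, and 0.02 for both regulators and fatty acids.

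The calls against Control therefore do not show that the 2 vesicle treatments differed in these genes. For Fdps the interval of the difference ran from 0.02 to 0.38 and for Cyp51 from -0.03 to 0.21. Without IN@OMVs 1, Sqle (0.32, adjusted p = 0.0143) and Lss (0.30, adjusted p = 0.0467) passed, with 5.95% of all genes called.

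**Figure D4:**
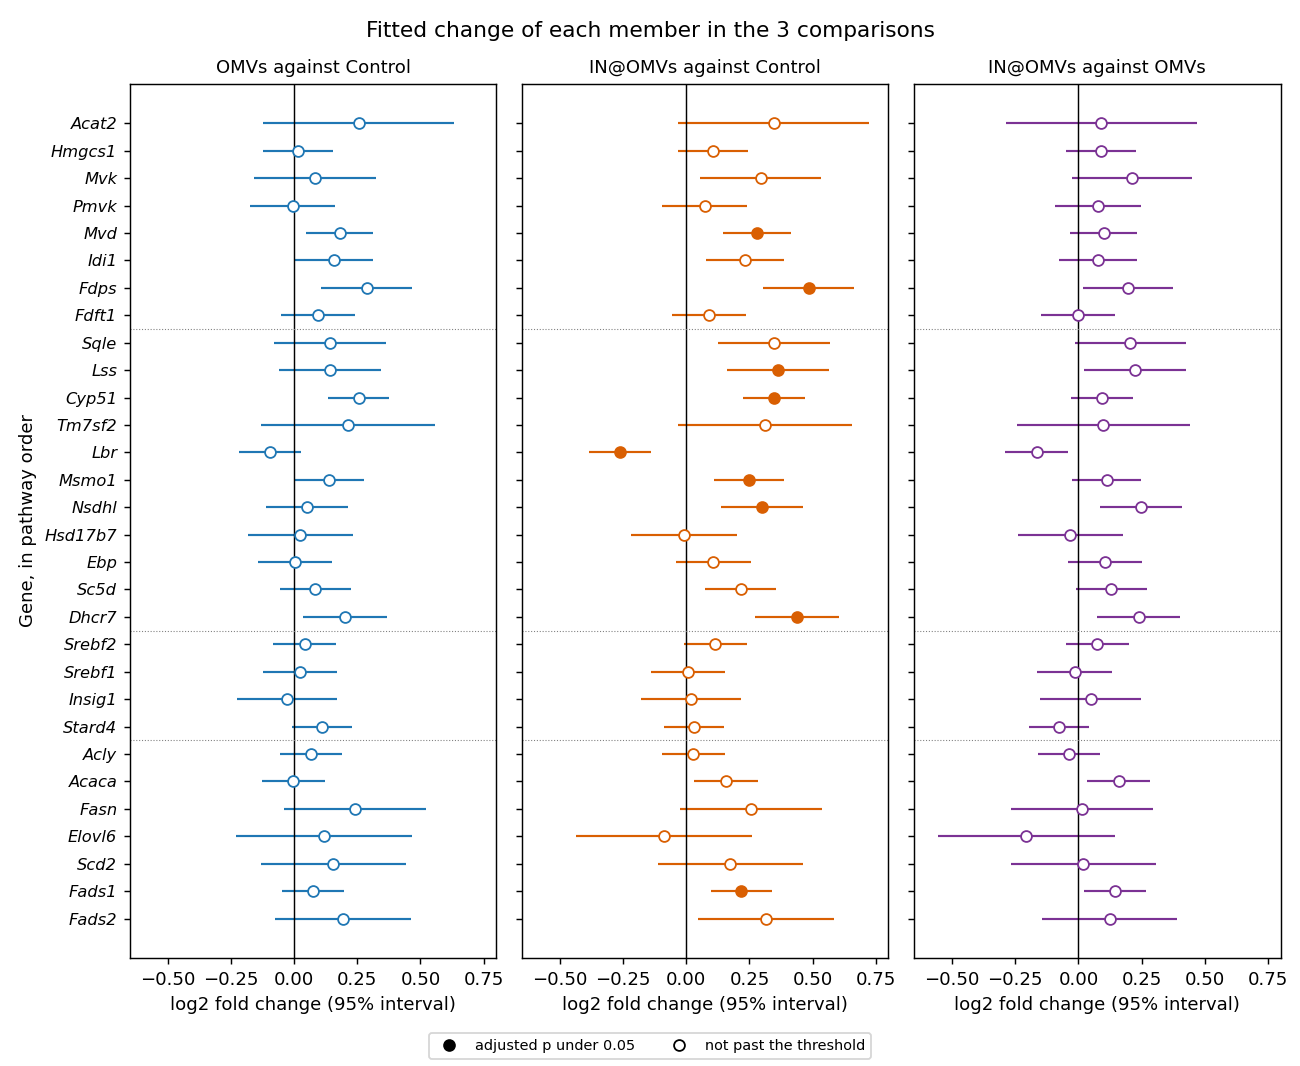
Fitted log2 fold change of the 30 genes (points) with 95% intervals (lines) in the 3 comparisons, where filled points passed an adjusted p of 0.05 and dotted lines separate the roles. The fit had no replicate block. The 9 filled points are all in IN@OMVs against Control, and 26, 27 and 23 of the 30 points lie right of 0 from left to right.

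Other genes of the pathway were taken from lists chosen by function. Of sterol genes outside the 30, the acetoacetate-activating enzyme gene Aacs had a log2 change of 0.38 in IN@OMVs against Control (adjusted p = 0.0739) and Tmem97 of 0.25 (adjusted p = 0.0828), and neither passed. Low counts removed 4 of 22 fatty acid genes (Elovl3, Thrsp, Pnpla3 and Mlxipl) from the test.

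Of 18 tested genes of fatty acid synthesis and its control outside the 30, 1 rose in IN@OMVs against Control, where 3.32% of all tested genes did. Lpin1, a phosphatidate phosphatase of triglyceride synthesis, stood at 18.1, 16.0 and 15.7 CPM in Control, 17.1, 18.2 and 18.1 in OMVs and 22.6, 22.1 and 21.9 in IN@OMVs. The IN@OMVs libraries were above the other 6 (0.42 ± 0.08, adjusted p = 0.0130). Mid1ip1, a partner of acetyl-CoA carboxylase, differed by 0.20 (adjusted p = 0.0579). In OMVs against Control 0 of the 18 passed in edgeR (0.42% of all genes), and in IN@OMVs against OMVs also 0 (2.85%), with 0 and 3 at an unadjusted p under 0.05.

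Genes of sterol efflux, esterification and LXR response, which act against sterol excess, were tested in 13 members. In IN@OMVs against Control 3 rose, where 3.32% of all genes did. Ch25h, which makes an oxysterol, a hydroxycholesterol that blocks SREBP processing, stood at 21.3, 26.7 and 25.4 CPM in Control, 22.1, 26.5 and 33.7 in OMVs and 96.1, 67.7 and 75.5 in IN@OMVs. All 3 IN@OMVs libraries were far above the other 6, with log2 changes of 1.70 ± 0.18 against Control (adjusted p = 0.000710) and 1.54 ± 0.17 against OMVs (adjusted p = 0.00237). The sterol exporter gene Abcg1 rose by 0.45 ± 0.08 (adjusted p = 0.0121) and Nceh1, a cholesteryl ester hydrolase, by 0.48 ± 0.11 (adjusted p = 0.0277, and 0.0616 with the replicate block). Abca1, the other main exporter, stood lower in IN@OMVs without passing (-0.53 ± 0.16, adjusted p = 0.0927). Against OMVs it was -0.65 ± 0.16 (adjusted p = 0.0726). The LXR gene Nr1h3 was also lower without passing, by -0.31 ± 0.16 against Control (adjusted p = 0.339) and -0.65 ± 0.16 against OMVs (adjusted p = 0.0706). Without IN@OMVs 1 both passed as lower against Control (Abca1 adjusted p = 0.0356, Nr1h3 0.0275) and against OMVs (0.0272 and 0.00324). Of all genes 12.4% and 5.95% were then called.

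Mylip, an LXR target that encodes a ubiquitin ligase, stood at 14.2, 12.8 and 11.8 CPM in Control, 9.88, 8.69 and 9.32 in OMVs and 13.3, 14.9 and 15.8 in IN@OMVs. OMVs was below both other groups, and Mylip rose in IN@OMVs against OMVs (0.66 ± 0.11, adjusted p = 0.0153, where 1.1% of all genes rose), 1 of 2 calls of this list there with Ch25h. In OMVs against Control it did not pass (-0.48 ± 0.11, adjusted p = 0.172, and 0.0438 without IN@OMVs 1).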

How the data were processed

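RNA was measured in 9 libraries of sorted tumour macrophages, 3 per group. The authors deposited expected counts (estimated reads per gene, not normalised), a unit read from the values: 88.8% to 89.6% of a library's values were whole numbers (within 1e-09). BWA, Bowtie2 and RSEM are named by the submitters' processing notes, with the builds mm9 and hg19 without versions or roles, so gene coordinates are not used here.

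Expected counts were rounded and fitted with edgeR 4.0.16 (R 4.3.3): TMM factors, filterByExpr, 1 mean per group over all 9 libraries, quasi-likelihood tests of 3 contrasts, and Benjamini-Hochberg adjustment over the 13090 genes tested, of 18042 in the table, at a threshold of 0.05. The biological coefficient of variation was 0.131 with 6 residual degrees of freedom. Steps were tested on simulated data. Alternatives were DESeq2 1.42.0, limma-voom (limma 3.58.1), other scalings and filters, fewer groups or libraries, and a replicate block.

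The replicate number entered as a block in an alternative fit, and the main fit had no block. Deviations from group means were correlated between libraries of the same number (1, 2 and 3 in order). Correlations of OMVs with Control were 0.55, 0.40 and 0.13, and those of IN@OMVs with Control 0.45, 0.33 and 0.16. For IN@OMVs and OMVs they were 0.02, 0.56 and -0.44, and the numbers were not taken as pairs. Against Control, libraries numbered 1 correlated negatively with those numbered 2 or 3 (-0.52 to -0.12). Deviations within a group sum to 0 for each gene. Positive values between libraries numbered 1 therefore force values with other numbers that are negative on balance, and these are not separate evidence. Numbers 2 and 3 were not told apart. With Control 3, OMVs 2 gave 0.39 and IN@OMVs 2 gave 0.36. With Control 2, OMVs 3 gave 0.06 and IN@OMVs 3 gave 0.31. The sources used here do not say what a number marks.

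The 30 genes, the other gene lists and the tests were chosen with earlier results of these data known. Some sterol genes outside the 30 are not reported here. Among the 30, values in every library are given for genes past the threshold in any comparison and for the 6 with the smallest p in each. They are also given for Srebf1, Srebf2, Insig1, Hmgcs1, Sqle and Fasn. Outside the 30, some genes that passed are given by log2 change only. Promoter windows came from RefSeq (GRCm38.p6). In 20 of 24 genes the bases after the start were found in an annotated transcript of the gene, and 0 matched in reverse.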

Additional observations from a re-analysis of the deposited data

How the results depend on the processing

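The number of the 30 genes past the threshold depended on the fit and on single libraries, and the median change kept its sign in every setting tried: 0.17 to 0.22 in IN@OMVs against Control, 0.07 to 0.14 in OMVs against Control and 0.06 to 0.12 in IN@OMVs against OMVs. In IN@OMVs against Control the count of 9 became 5 with the replicate block and 3 when only the 2 groups compared were fitted (Cyp51, Dhcr7 and Fdps), and it was 11 with DESeq2, 8 with limma-voom, 9 with DESeq2 size factors, 7 with library totals alone and 6 without the filter on low counts. Over the fits that left out libraries it ran from 0 to 13. It was 13 without IN@OMVs 1 and 13 without all libraries numbered 1, 2 without Control 2, and 4 without IN@OMVs 3, Control 1 or Control 3. It was 5 without IN@OMVs 2, OMVs 2 or OMVs 3. It was 0 without all libraries numbered 2 or all numbered 3, where edgeR called 85 and 61 of all genes and 7 and 10 of the 30 had an unadjusted p under 0.05. In OMVs against Control the count of 0 was 1 with DESeq2 and ran from 0 to 1 over the omissions (1 without IN@OMVs 1), and the block gave 0. In IN@OMVs against OMVs the count of 0 ran from 0 to 3 over the omissions: 2 without IN@OMVs 1 and 3 without all libraries numbered 1.

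Changes near 0 also changed sign when libraries were left out. In OMVs against Control the ranges were -0.0199 to 0.0638 for Hmgcs1, -0.00315 to 0.125 for Nsdhl, -0.0134 to 0.0985 for Srebf2, -0.105 to 0.0371 for Insig1 and -0.0644 to 0.0424 for Acaca. In IN@OMVs against Control they were -0.0678 to 0.0450 for Srebf1, which was -0.00987 with library totals alone, and -0.0706 to 0.150 for Insig1. In IN@OMVs against OMVs they were -0.0874 to 0.0427 for Srebf1, -0.0157 to 0.138 for Insig1 and -0.102 to 0.207 for Fasn. The cause of these changes was not tested beyond the fewer samples in each fit. Of 969 recomputed values of the named genes, 846 kept direction and side of the threshold, 74 lost a call, 15 gained one and 34 changed sign. The motif TCACNCCAC was found in 1 gene, its core CACNCCA in 5 and CCAAT, added after seeing the data, in 20. The block changed no call in the other 2 comparisons among the 30 genes.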
